A study of Mus musculus with 10 samples.

Results

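Extracellular ATP and adenosine genes were followed in macrophages of 4T1 tumours that had been sorted on podoplanin (PDPN), a membrane glycoprotein of lymphatic endothelium and activated fibroblasts. The group consisted of 8 genes, taken by gene name from the deposited table of 46603: the ectoenzyme genes Entpd1 and Nt5e, the deaminase gene Ada, the adenosine receptor genes Adora2a, Adora2b and Adora3, and the ATP receptor genes P2rx4 and P2rx7. They were chosen by name, and selected on the known differences in their counts between the sorted fractions, so their values in that contrast are a description, given with fold changes and standard errors but without a test of their own. PoEMs, as the submitters call them, were viable CD11B+, F4/80+, PDPN+ cells, and non-PoEMs were the CD11B+, F4/80+, PDPN- cells of the same tumours. Both fractions came from 5 tumours, numbered 1, 2, 4, 5 and 6, which gave 10 libraries. 4T1 is a mouse mammary carcinoma line, so that all tumours share a single tumour cell source, and neither a treatment nor the strain, sex or age of the hosts is given in the labels used here. The study set out to learn what PDPN+ macrophages contribute to lymphatic vessel growth and matrix remodelling. The labels number the tumours and do not say whether each grew in a separate mouse.

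Stressed and dying cells release ATP, which opens the P2X channels of macrophages, P2X4 at low and P2X7 at high ATP concentrations, and P2X7 is best known for setting off the NLRP3 inflammasome. CD39, the product of Entpd1, removes phosphates from ATP and ADP to leave AMP, and CD73, the product of Nt5e, turns AMP into adenosine. Adenosine acts on receptors that raise cAMP (the products of Adora2a and Adora2b) or lower it (those of Adora1 and Adora3), and is removed by uptake or by adenosine deaminase. In tumours this chain is known mainly as a source of adenosine that restrains T cells and myeloid cells.

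The promoters shown here belong to the genes whose levels moved between the fractions, as far as RefSeq (GRCm38.p6) holds a window for them, and to Adora2b, which did not move, for comparison. Each runs 5′ to 3′ on the gene's strand from 250 bases before the RefSeq start to 50 bases from the start onward. Capitals mark ACGTG or GCGTG on either strand, the core letters of the hypoxia response element. The windows are chr9:88327359-88327658 (plus strand) for Nt5e, chr2:163750190-163750489 (minus strand) for Ada, chr11:62248734-62249033 (plus strand) for Adora2b and chr5:122707294-122707593 (plus strand) for P2rx4.
Nt5e: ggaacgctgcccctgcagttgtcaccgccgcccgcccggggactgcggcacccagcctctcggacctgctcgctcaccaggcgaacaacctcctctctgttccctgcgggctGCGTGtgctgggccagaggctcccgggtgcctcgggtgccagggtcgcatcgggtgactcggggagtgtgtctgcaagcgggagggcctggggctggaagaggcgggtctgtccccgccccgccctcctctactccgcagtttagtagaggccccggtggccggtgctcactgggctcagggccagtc
Ada: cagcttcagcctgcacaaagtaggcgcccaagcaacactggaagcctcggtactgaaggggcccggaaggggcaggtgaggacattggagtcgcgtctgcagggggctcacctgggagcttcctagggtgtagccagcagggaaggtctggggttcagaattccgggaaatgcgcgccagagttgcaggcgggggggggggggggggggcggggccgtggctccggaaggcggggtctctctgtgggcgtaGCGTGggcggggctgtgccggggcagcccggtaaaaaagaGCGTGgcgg
Adora2b: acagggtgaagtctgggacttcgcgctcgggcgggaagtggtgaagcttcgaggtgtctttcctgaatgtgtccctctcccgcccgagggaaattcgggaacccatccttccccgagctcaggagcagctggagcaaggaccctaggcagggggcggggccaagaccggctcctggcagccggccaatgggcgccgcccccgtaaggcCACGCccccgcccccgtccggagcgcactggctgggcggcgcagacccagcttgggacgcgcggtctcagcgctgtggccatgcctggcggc
P2rx4: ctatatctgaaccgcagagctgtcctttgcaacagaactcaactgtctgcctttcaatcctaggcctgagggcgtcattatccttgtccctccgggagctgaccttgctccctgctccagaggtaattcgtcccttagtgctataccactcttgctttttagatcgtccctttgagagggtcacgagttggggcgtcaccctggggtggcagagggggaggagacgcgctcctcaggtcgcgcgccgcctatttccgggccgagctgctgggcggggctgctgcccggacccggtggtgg
These core letters stood once in the Nt5e window (138 bases upstream of the start) and once in the Adora2b window (42 bases upstream), and in the Ada window at 2 places, both downstream of the start. They were absent from the P2rx4 window, which instead held TGACG, a core of the cAMP response element, at 2 places on the opposite strand. Over all 32851 RefSeq windows of 300 bases, 43.8% held ACGTG or GCGTG and 20.8% held TGACG on either strand, so that neither motif is rare. GAGGAA, a core of the macrophage factor PU.1, was in 28.3% of all windows. It was in none of these 4 but in both windows listed for P2rx7, where it lay close to the start. The Adora3 window also held it, 28 bases upstream of the start, and the second window listed for Entpd1 held it at 2 places. The letters TGACG and ACGTG can overlap in a single site, which did not occur in these 4 windows.

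Pdpn separated the fractions as the sort would have it, at 189.8 to 248 CPM in PoEMs and 10.96 to 29.1 CPM in non-PoEMs (CPM, read counts per 1000000 of the library, scaled by edgeR's TMM factors). Libraries held 12597829 to 15406722 counts, so that 1 count was worth 0.0649 to 0.0794 CPM. Macrophage markers were high in both fractions: all 10 of that list were tested, Itgam was higher and Csf1r lower, and their summed level was 19289 to 23538 CPM in PoEMs and 19138 to 21789 CPM in non-PoEMs. Markers of other cell types were also detected, and their levels differed between the fractions. Of 12 fibroblast markers 11 were higher in PoEMs (summed 309 to 502 CPM, against 33.2 to 44.9 CPM in non-PoEMs). Of 8 eosinophil markers the 4 tested were lower (summed 4.30 to 12.6 CPM in PoEMs, against 57.2 to 141 CPM in non-PoEMs), and Epx, Prg2, Ear1 and Ear6 had no count in PoEMs and 14, 116, 1 and 4 counts in non-PoEMs. Of 8 neutrophil markers 5 were lower and 1 higher (summed 117 to 145 CPM in PoEMs, against 214 to 289 CPM in non-PoEMs). Mast cell and basophil markers summed to 1.56 to 3.83 CPM in PoEMs and 4.93 to 13.9 CPM in non-PoEMs, with Gata2 lower and Fcer1a and Ms4a2 at no count in PoEMs. Monocyte markers split, with Ly6c2 and Ccr2 lower and Fn1 higher. Markers of blood and lymphatic endothelium summed to 209 to 496 CPM in PoEMs and 151 to 415 CPM in non-PoEMs, with Vwf higher. Epithelial and tumour cell markers summed to 89.4 to 252 CPM in PoEMs and 72.9 to 204 CPM in non-PoEMs, with none past the threshold. The part of these cells in the results that follow was not tested. In such bulk samples, fewer cells of a type and less RNA per cell cannot be told apart. Nor can RNA of other cells be told from expression of these markers by the sorted macrophages themselves.

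**Figure D1:**
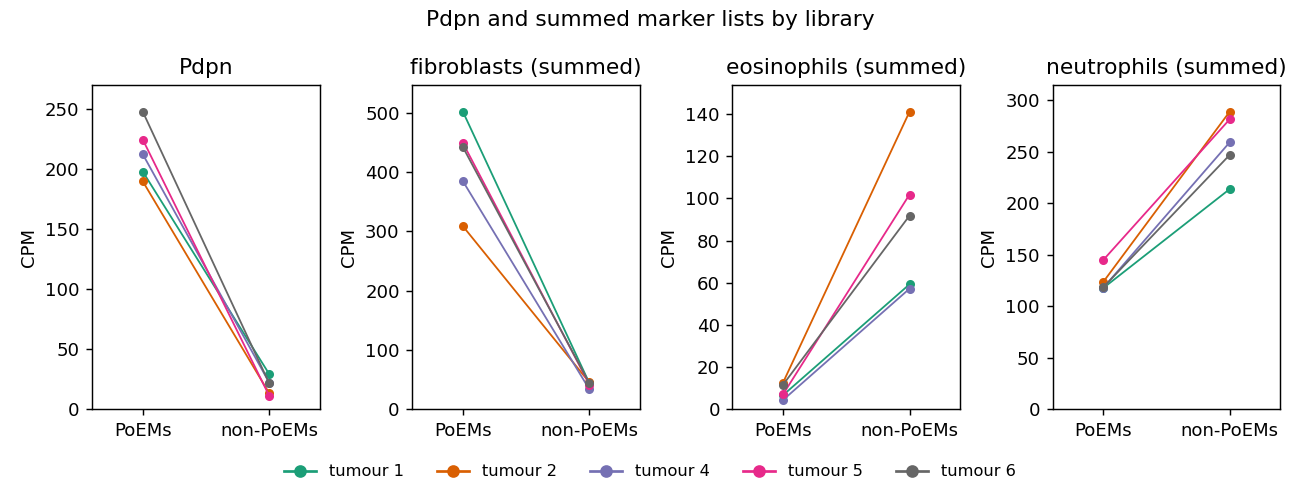
CPM of Pdpn and summed CPM of 3 marker lists in the PoEMs (left) and non-PoEMs (right) of each tumour; lines join the fractions of a tumour. Pdpn and fibroblast markers were higher in PoEMs of all 5 tumours (fibroblast sums of 309 to 502 CPM, against 33.2 to 44.9 CPM), and eosinophil and neutrophil markers were lower.

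Nt5e, the gene of the enzyme that makes adenosine, was higher in PoEMs. Ada, the gene of the enzyme that removes it, was higher by less, and its call was lost in 13 of 26 alternatives. The high-affinity receptor gene Adora2a was lower, and Entpd1, the gene of the first enzyme of the chain, was level. All 8 genes passed the filter on low counts. In edgeR's quasi-likelihood fit over all 13595 genes tested (p adjusted by Benjamini-Hochberg, threshold 0.05), 4 of the 8 lay past the threshold, Nt5e and Ada higher and Adora2a and P2rx4 lower. The background was 13.6% of genes called in either direction, 6.83% higher and 6.77% lower. The same 4 genes were past the threshold in the blocked fit by tumour, against a background of 28.2% of all genes. The median log2 fold change was -0.03 over the 8 genes and 0.0068 over all genes tested. The ranges of the fractions did not overlap for 3 of the 8, Nt5e higher and Adora2a and P2rx4 lower (10.5% of all genes, 5.38% higher and 5.13% lower), and 5 of the 8 moved the same way in all 5 tumours (35.0% of all genes). Nothing is read from these shares, since the genes were chosen with this contrast known.

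**Figure D2:**
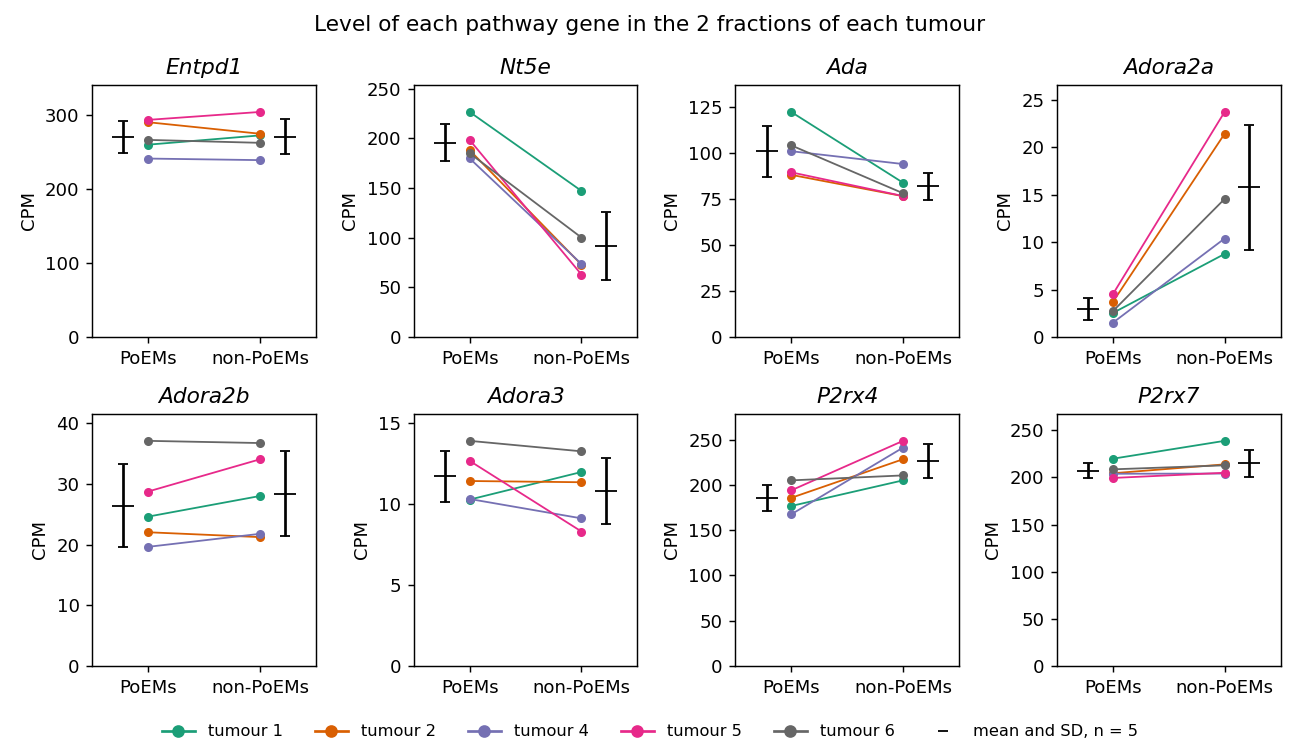
CPM of each of the 8 genes in the PoEMs (left) and non-PoEMs (right) of each tumour; lines join the fractions of a tumour, and black marks give the mean and SD (n = 5). Nt5e lies at 179.8 to 227 CPM in PoEMs, above its range of 62.9 to 147 CPM in non-PoEMs, and Adora2a lies at 1.499 to 4.496 CPM, below its range of 8.76 to 23.7 CPM.

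Nt5e (ENSMUSG00000032420, chromosome 9, 88327197 to 88372092 of GRCm38, plus strand), which encodes CD73, stood highest above its level in the other fraction. It measured 227, 188, 179.8, 198 and 185 CPM in PoEMs of tumours 1, 2, 4, 5 and 6, and 147, 72.8, 73.5, 62.9 and 100.1 CPM in non-PoEMs of the same tumours. Every PoEMs library was above every non-PoEMs library, and the non-PoEMs of tumour 1 came nearest. The mean was 196 ± 18.6 CPM in PoEMs and 91.3 ± 34.1 CPM in non-PoEMs (SD, n = 5 each), and the fitted log2 fold change was 1.10 ± 0.21 (SE), or 2.14-fold. By tumour, PoEMs had 1.54 to 3.15 times the level of their non-PoEMs, the smallest ratio in tumour 1 and the largest in tumour 5. The spread over tumours was wide in non-PoEMs, with a coefficient of variation of 37.4%, and narrow in PoEMs, with 9.51%. Nt5e is also known from fibroblasts, whose markers were higher in the same PoEMs libraries (11 of 12, sums given above). Of that list the collagen genes Col3a1, Col1a1 and Col1a2 were the most abundant, at 141, 122 and 79.7 CPM in PoEMs and 8.46, 7.91 and 4.85 CPM in non-PoEMs. The other 9 ranged from 2.36 CPM (Lum) to 19.5 CPM (Postn) in PoEMs, and Fap did not pass the test (4.80 CPM in PoEMs and 5.19 CPM in non-PoEMs). PoEMs of tumour 1 had both the highest fibroblast sum and the highest Nt5e of the 10 libraries. In PoEMs, tumours 1, 5, 6 and 4 stood in the same falling order for both (sums of 502, 449, 442 and 385 CPM). Only tumour 2 was out of that order, with the lowest sum (309 CPM) but Nt5e at 188 CPM, above tumours 4 and 6. In non-PoEMs the highest sum was in tumour 2 (44.9 CPM), where Nt5e was at 72.8 CPM. The part of fibroblast RNA in the Nt5e difference was not tested.

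Ada (ENSMUSG00000017697, chromosome 2, 163726584 to 163750239, minus strand), which encodes adenosine deaminase, rose by less. It measured 122, 88.0, 101, 89.4 and 104 CPM in PoEMs of tumours 1, 2, 4, 5 and 6, against 83.7, 76.4, 93.9, 76.5 and 78.03 CPM in non-PoEMs. It was higher in PoEMs of all 5 tumours, by a ratio of 1.07 in tumour 4 to 1.46 in tumour 1, but the ranges overlapped. The mean was 101 ± 13.8 CPM in PoEMs and 81.7 ± 7.42 CPM in non-PoEMs (SD, n = 5 each), and the log2 fold change was 0.30 ± 0.09 (SE). The gene was no longer past the threshold when any of 7 libraries was left out (PoEMs of tumour 1, 4 or 6, or non-PoEMs of tumour 1, 2, 5 or 6), although its log2 fold change stayed between 0.23 and 0.35 with any library out. It also fell short whichever of the 5 tumours was left out (edgeR adjusted p up to 0.130). With the tumour as a block it instead stayed past the threshold whichever tumour was left out.

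Entpd1 (ENSMUSG00000048120, chromosome 19, 40612366 to 40741602, plus strand), which encodes CD39, was level between the fractions. It measured 260.4, 291, 242, 294 and 267 CPM in PoEMs of tumours 1, 2, 4, 5 and 6, and 273, 275, 239, 305 and 263 CPM in non-PoEMs. The ranges lay almost on each other, and the ratio within a tumour was between 0.954 and 1.06. The log2 fold change was -0.0019 ± 0.076 (SE), the smallest of the 8 genes, so that a change as large as that of Nt5e lies far outside its error. Tumours that were high in one fraction were high in the other, tumour 4 being lowest and tumour 5 highest in both.

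**Figure D3:**
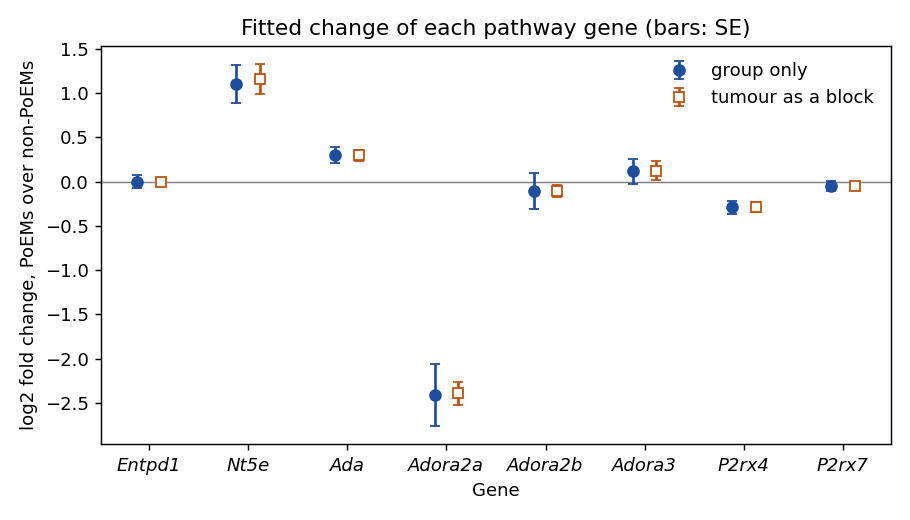
Fitted log2 fold change (PoEMs over non-PoEMs) of each of the 8 genes, with bars for the SE, in the fit on group alone (filled) and with the tumour as a block (open). Adora2a is at -2.41 and Nt5e at 1.10 in the fit on group alone, and Entpd1, Adora2b, Adora3 and P2rx7 lie close to 0 in both fits.

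Within a library, the balance of the enzyme genes shifted with Nt5e. The ratio of Nt5e to Entpd1 in TPM (counts divided by exon length and scaled to a sum of 1000000 per library) was 0.564, 0.420, 0.483, 0.438 and 0.4496 in PoEMs of tumours 1, 2, 4, 5 and 6, and 0.350, 0.172, 0.199, 0.134 and 0.247 in non-PoEMs. All PoEMs libraries were above all non-PoEMs libraries. The ratio of Nt5e to Ada was 0.414 to 0.516 in PoEMs and 0.182 to 0.409 in non-PoEMs, and was higher in PoEMs of each tumour. These ratios of RNA say nothing of enzyme activity, and their absolute size depends on the exon length taken for Nt5e.

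Among adenosine receptor genes the fall was in Adora2a (ENSMUSG00000020178, chromosome 10, 75316877 to 75334784, plus strand), which encodes the high-affinity receptor that couples adenosine to cAMP. It measured 2.53, 3.68, 1.499, 4.496 and 2.71 CPM in PoEMs of tumours 1, 2, 4, 5 and 6, from 23 to 59 counts a library. In non-PoEMs it measured 8.76, 21.4, 10.4, 23.7 and 14.6 CPM, from 112 to 329 counts. Every PoEMs library was below every non-PoEMs library, and tumours 2 and 5 were the highest in both fractions. The mean was 2.98 ± 1.146 CPM in PoEMs and 15.8 ± 6.61 CPM in non-PoEMs (SD, n = 5 each), and the log2 fold change was -2.41 ± 0.35 (SE), or 5.32-fold lower. PoEMs held between 0.144 and 0.289 of the level of their own non-PoEMs. Markers of eosinophils, neutrophils and mast cells were lower in these PoEMs too, and in non-PoEMs tumours 2 and 5 had the highest eosinophil sums (141 and 102 CPM) and the highest neutrophil sums (289 and 281 CPM) as well as the highest Adora2a. In PoEMs the eosinophil sum was highest in tumours 2 and 6 (12.6 and 11.6 CPM) and the neutrophil sum in tumours 5 and 2 (145 and 123 CPM). Dendritic cell markers (2 of 7 tested lower) were highest in tumours 2 and 5 of both fractions, at 39.3 and 60.04 CPM in PoEMs and 93.2 and 83.9 CPM in non-PoEMs, and their order over the PoEMs of the 5 tumours was that of Adora2a. The part of these cells in the Adora2a difference was not tested.

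Adora2b (ENSMUSG00000018500, chromosome 11, 62248984 to 62266453, plus strand), which encodes the low-affinity receptor, varied by tumour rather than by fraction. It measured 24.6, 22.0, 19.6, 28.7 and 37.1 CPM in PoEMs of tumours 1, 2, 4, 5 and 6, and 27.99, 21.2, 21.8, 34.03 and 36.7 CPM in non-PoEMs. Tumours 5 and 6 were high and tumours 2 and 4 low in both fractions, and the ratio within a tumour was 0.844 to 1.04. The log2 fold change was -0.10 ± 0.20 (SE), or -0.10 ± 0.07 with the tumour as a block. Adora3 (ENSMUSG00000000562, chromosome 3, 105870858 to 105908926, plus strand), which encodes the A3 receptor, measured 10.3, 11.4, 10.3, 12.6 and 13.9 CPM in PoEMs and 11.96, 11.3, 9.10, 8.29 and 13.2 CPM in non-PoEMs of the same tumours. The fractions overlapped, and the ratio ran from 0.858 in tumour 1 to 1.53 in tumour 5 (log2 fold change 0.12 ± 0.14, SE). Its exons share 779 bases with those of Tmigd3 on the same strand, which had 8 counts in all PoEMs and 41 in all non-PoEMs libraries, and the sources used here do not say how shared reads were assigned. Adora1, the A1 receptor gene, had 0 counts in PoEMs and 10 in non-PoEMs and overlaps Mybph on the other strand.

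The make-up of the receptor family therefore differed with Adora2a. Adora2b provided 77.3% ± 2.89 of the summed TPM of Adora1, Adora2a, Adora2b and Adora3 in PoEMs and 65.4% ± 7.25 in non-PoEMs (SD, n = 5 each). Adora2a provided 5.32% ± 1.89 in PoEMs and 21.8% ± 7.80 in non-PoEMs, with no overlap (3.53 to 7.42%, against 13.5 to 32.4%). Adora3 provided 17.3% ± 1.98 in PoEMs and 12.7% ± 2.87 in non-PoEMs. A larger share of Adora2b or Adora3 does not mean a higher level, since a share grows when another member falls.

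**Figure D4:**
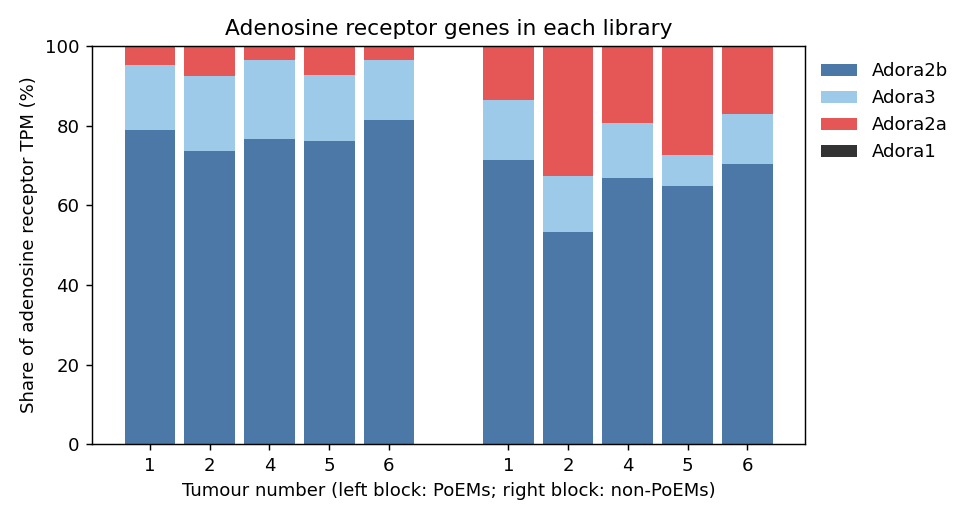
Share of each adenosine receptor gene in their summed TPM (percent) in each PoEMs library (left block) and non-PoEMs library (right block), by tumour number. Adora2b is the largest share in all 10 libraries, and the Adora2a share is 3.53 to 7.42% in PoEMs and 13.5 to 32.4% in non-PoEMs; Adora1 is too small to be seen.

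The ATP receptor genes P2rx7 and P2rx4 lie next to each other on chromosome 5 with 16111 bases between them, and moved unequally. P2rx4 (ENSMUSG00000029470, 122707544 to 122729738, plus strand), whose channel opens at low ATP, measured 177, 186, 168, 194 and 205 CPM in PoEMs of tumours 1, 2, 4, 5 and 6, and 205, 229, 241, 249 and 211 CPM in non-PoEMs. It was lower in PoEMs of all 5 tumours, with a ratio of 0.694 in tumour 4 to 0.974 in tumour 6. The ranges did not overlap but nearly touched, at 205.14 CPM in PoEMs of tumour 6 and 205.16 CPM in non-PoEMs of tumour 1. The mean was 186 ± 14.6 CPM in PoEMs and 227 ± 18.9 CPM in non-PoEMs (SD, n = 5 each), with a log2 fold change of -0.29 ± 0.07 (SE). It was no longer past the threshold without PoEMs of tumour 1 or 4 or non-PoEMs of tumour 5, at log2 fold changes of -0.27, -0.26 and -0.25. Leaving out tumour 2, 4 or 5 also ended the call (edgeR adjusted p of 0.0858, 0.114 and 0.0665). With the tumour as a block P2rx4 stayed past the threshold whichever tumour was left out.

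P2rx7 (ENSMUSG00000029468, 122643911 to 122691432, plus strand), whose channel needs high ATP, measured 219.8, 204, 204, 199 and 209 CPM in PoEMs and 239, 214, 204, 205 and 213 CPM in non-PoEMs of tumours 1, 2, 4, 5 and 6. It was also lower in all 5 tumours, but by ratios of 0.921 to 0.999, and the ranges overlapped. The log2 fold change was -0.05 ± 0.06 (SE) and lay short of the threshold with and without the block. Its coefficient of variation in PoEMs was 3.74%, the smallest of the 8 genes. The ratio of P2rx4 to P2rx7 in TPM was 0.684, 0.773, 0.698, 0.827 and 0.836 in PoEMs, against 0.730, 0.908, 1.00, 1.03 and 0.841 in non-PoEMs, lower in PoEMs of each tumour.

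Ordered by level per length in PoEMs, the genes were Ada at 147 ± 20.5 TPM, Entpd1 at 142 ± 10.7, P2rx7 at 102 ± 4.32, P2rx4 at 77.3 ± 4.29, Nt5e at 66.6 ± 6.54, Adora2b at 41.7 ± 9.73, Adora3 at 9.16 ± 1.02 and Adora2a at 2.84 ± 1.08 TPM (SD, n = 5). In that order Ada and Entpd1 overlapped, as did P2rx4 and Nt5e, and the other neighbours did not. In non-PoEMs the order was Entpd1 at 142 ± 10.7 TPM, Ada at 119.9 ± 12.9, P2rx7 at 106 ± 7.42, P2rx4 at 94.7 ± 7.94, Adora2b at 45.0 ± 10.8, Nt5e at 31.2 ± 11.9, Adora2a at 15.03 ± 6.12 and Adora3 at 8.48 ± 1.59 TPM. There the ranges of Entpd1 and Ada, Ada and P2rx7, P2rx7 and P2rx4, Adora2b and Nt5e, Nt5e and Adora2a, and Adora2a and Adora3 overlapped. Between the fractions, Nt5e and Adora2b changed places, as did Adora2a and Adora3, and Ada and Entpd1. The order depends on the length taken for each gene. With the longest transcript in place of all exons Nt5e was at 116 TPM in PoEMs and 54.5 TPM in non-PoEMs, and its rank was 3 in PoEMs and 5 in non-PoEMs, in place of 5 and 6. Entpd1 then led in both fractions, at 153 TPM in each, with Ada at 142 TPM in PoEMs and 115 TPM in non-PoEMs. P2rx4 then lay above P2rx7, at 113 and 99.9 TPM in PoEMs and 139 and 104 TPM in non-PoEMs, and in non-PoEMs Nt5e lay above Adora2b. The ranks of Adora2a and Adora3 were the same with either length.

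Within non-PoEMs, the tumours that were high in residual Pdpn were high in Nt5e and low in Adora2a. The non-PoEMs of tumour 1 had the most Pdpn (29.1 CPM) and the most Nt5e (147 CPM), and the least Adora2a (8.76 CPM). Those of tumour 5 had the least Pdpn (10.96 CPM) and the least Nt5e (62.9 CPM), and the most Adora2a (23.7 CPM). The tumours between them kept that order for Adora2a against Pdpn with no exception, and for Nt5e with tumours 4 and 6 exchanged (73.5 and 100.1 CPM, at 22.0 and 21.4 CPM of Pdpn). This order was not among the planned results and was looked at in non-PoEMs only, and with 5 libraries no correlation was computed. In PoEMs, Nt5e and Adora2a were not opposed in this way. Tumour 4 had both the least Nt5e (179.8 CPM) and the least Adora2a (1.499 CPM) there.

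The genes with profiles most like those past the threshold were sought among 9643 other genes whose log2 CPM averaged 3 or more, by the root mean square distance between log2 CPM profiles over the 10 libraries, each centred on its gene's mean. Nearest to Nt5e were Cd9-ps (distance 0.13), Lonrf3 (0.16) and Cd9 (0.16), of which Cd9 encodes a tetraspanin and Cd9-ps is a pseudogene that may share its reads. Nearest to Adora2a were F5 (0.33), which encodes coagulation factor V, Hdc (0.36), which encodes the enzyme that makes histamine, and Cd24a (0.51). F5 was at 18.1 CPM in PoEMs and 72.2 CPM in non-PoEMs, and Hdc at 5.07 CPM in PoEMs and 22.8 CPM in non-PoEMs. Nearest to Ada were Nup85, Prdx4 and Tmem106c (0.094 to 0.099), and nearest to P2rx4 were Erbb2ip, Snap23 and Hsd17b11 (0.0496 to 0.056). Since the distance spans both fractions, it favours genes with a like difference between them, and shared regulation was not tested.

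Beyond the 8 genes, calls among other purinergic genes were about as frequent as among all genes in the fit on group alone. Of 95 related genes in 5 lists, 74 were tested, and 2 were higher and 6 lower in PoEMs (edgeR adjusted p under 0.05, against 6.83% higher and 6.77% lower of all genes), with a median log2 fold change of -0.05, against 0.0068 over all genes. In the blocked fit the counts were 5 higher and 19 lower, against 13.8% and 14.3% of all genes in that fit. Among 12 tested enzymes of extracellular nucleotides and adenosine, 2 were lower and none higher, and in the blocked fit 3 were lower and none higher. Acpp, which encodes a phosphatase that can also turn AMP into adenosine, was at 0.219 ± 0.105 CPM in PoEMs and 2.08 ± 0.679 CPM in non-PoEMs (SD, n = 5 each), with a log2 fold change of -3.22 ± 0.37 (SE) and an edgeR adjusted p of 0.000137. This was from 15 counts in PoEMs and 146 in non-PoEMs. Dpp4, whose product CD26 binds adenosine deaminase in humans, was at 2.68 ± 1.32 CPM in PoEMs and 8.94 ± 6.61 CPM in non-PoEMs (edgeR adjusted p = 0.0416, and up to 0.0968 with a library left out, which ended the call for 6 of the 10 libraries). It is also on the dendritic cell marker list, whose summed level was 20.3 to 60.0 CPM in PoEMs and 30.3 to 93.2 CPM in non-PoEMs. Without non-PoEMs of tumour 2 the log2 fold change of Dpp4 was -1.17 in place of -1.74. Its call also ended for 4 tumours left out in turn (edgeR adjusted p up to 0.135), but for none with the tumour as a block. Another 5 genes of the list lay below the filter.

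None of 17 tested genes of nucleoside transport and intracellular purine handling passed the test on group alone. With the tumour as a block 2 were lower and none higher, against 14.3% and 13.8% of all genes. Slc28a2, which encodes a concentrative nucleoside transporter, came nearest, at 20.9 ± 4.02 CPM in PoEMs and 43.0 ± 20.8 CPM in non-PoEMs (edgeR adjusted p = 0.0756). With the tumour as a block it was past the threshold (adjusted p = 0.0473), and it was lower in 5 of 5 tumours, but that call ended without tumour 2, 4 or 5 (adjusted p = 0.141, 0.0953 and 0.124). In the same list, Slc29a1, the main equilibrative transporter for adenosine uptake, was at 95.9 CPM in PoEMs and 104 CPM in non-PoEMs (edgeR adjusted p = 0.331), a gene named after its value was seen. Of 13 tested genes for other nucleotide receptors and ATP release, 1 was lower in the fit on group alone. With the block 1 was higher and 3 lower, against 13.8% and 14.3% of all genes. The gene lower on group alone, P2rx1, encodes another ATP-gated channel. It was at 2.68 ± 0.57 CPM in PoEMs and 9.90 ± 2.48 CPM in non-PoEMs (SD, n = 5 each), with a log2 fold change of -1.89 ± 0.20 (SE) and an edgeR adjusted p of 8.36e-05. Eosinophil and neutrophil markers were lower in the same PoEMs, and their part in this was not tested.

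**Figure D5:**
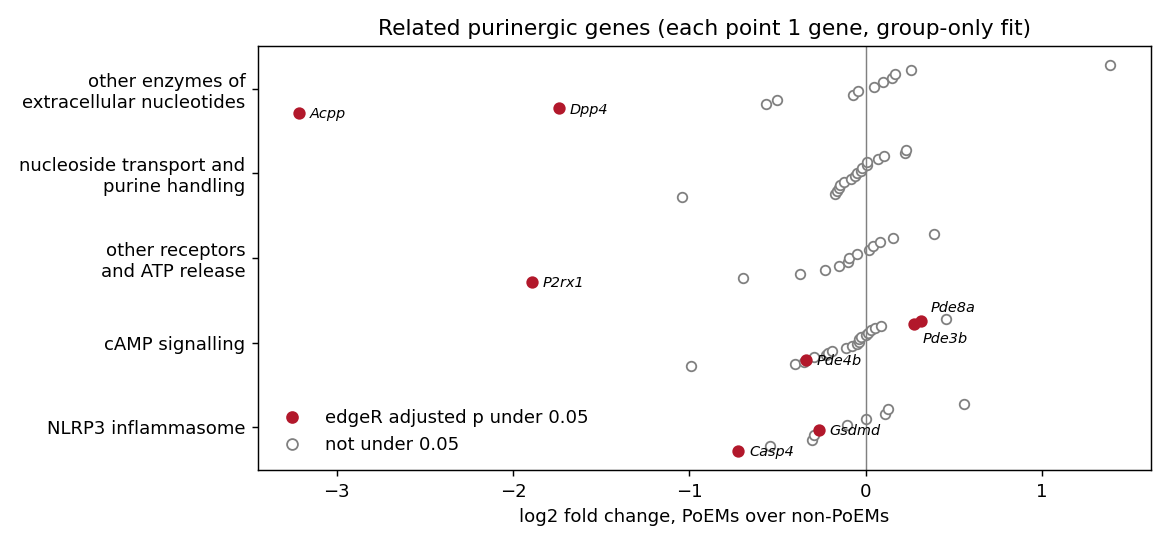
Log2 fold change (PoEMs over non-PoEMs, horizontal axis) of each of the 74 tested genes in 5 related lists (rows; vertical scatter within a row only separates points), filled where the edgeR adjusted p was under 0.05. The 8 filled genes are labelled: Pde8a and Pde3b are higher in PoEMs, and Acpp, Dpp4, P2rx1, Pde4b, Casp4 and Gsdmd are lower.

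Of 22 tested cAMP genes, 2 were higher and 1 lower, against 13.6% of all genes in either direction, and all 3 encode phosphodiesterases, which break down cAMP. Pde8a was at 59.5 ± 5.61 CPM in PoEMs and 47.8 ± 4.84 CPM in non-PoEMs (log2 fold change 0.32, edgeR adjusted p = 0.0234), and Pde3b was at 121 ± 8.33 CPM in PoEMs and 99.8 ± 11.6 CPM in non-PoEMs (0.27, adjusted p = 0.0406). Pde4b was lower, at 276 ± 33.8 CPM in PoEMs and 349.96 ± 42.9 CPM in non-PoEMs (log2 fold change -0.34, edgeR adjusted p = 0.0392). Their calls ended for 3 libraries left out in turn for Pde8a (adjusted p up to 0.0749) and for 7 each for Pde3b (up to 0.104) and Pde4b (up to 0.102). They also ended for 3 tumours left out in turn for Pde8a (up to 0.106), 4 for Pde3b (up to 0.124) and 3 for Pde4b (up to 0.124). With the tumour as a block they held whichever tumour was left out. With the block 3 genes of the list were higher and 6 lower, against 13.8% and 14.3% of all genes. In that fit the calls were not all phosphodiesterase genes, since Adcy4, Adcy9, Creb1 and Crem were among those lower. These were named after their values were seen.

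The last list held 10 genes of the NLRP3 inflammasome, which P2X7 can set off, and of linked cell death and cytokine release. Of these, 2 were lower and none higher, against 6.77% and 6.83% of all genes. Casp4, the gene of the mouse protease caspase-11, was at 28.5 ± 5.46 CPM in PoEMs and 46.9 ± 10.1 CPM in non-PoEMs (log2 fold change -0.72 ± 0.16, SE, edgeR adjusted p = 0.0149), with no overlap, but its call ended without tumour 2 (adjusted p = 0.0656) or tumour 4 (0.0789), unless the tumour was a block. Gsdmd, which encodes the pore-forming gasdermin D, was at 112 ± 6.66 CPM in PoEMs and 134 ± 10.8 CPM in non-PoEMs (edgeR adjusted p = 0.0193, and up to 0.0546 without PoEMs of tumour 1 or non-PoEMs of tumour 2). Its call also ended for 2 tumours left out in turn (edgeR adjusted p up to 0.0600), but for none with the tumour as a block. Nlrp3 itself was at 397 CPM in PoEMs and 491 CPM in non-PoEMs (edgeR adjusted p = 0.125, or 0.000378 with the tumour as a block). Il1b was at 2607 CPM in PoEMs and 3189.5 CPM in non-PoEMs (adjusted p = 0.253, or 0.00811 with the block). In the blocked fit 5 of the 10 were lower and 1, Il1a, was higher, against 14.3% and 13.8% of all genes. Nlrp3, Il1b and Il1a were named after their values were seen.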

How the data were processed

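RNA was measured in 10 libraries of sorted 4T1 tumour macrophages, amplified by SMART-Seq per the labels' protocols, with no molecular identifiers mentioned, so counts are taken as reads. The authors deposited raw counts per gene as whole numbers. The submitters' processing notes name featureCounts 1.5.3, STAR 2.5.2b, cutadapt 1.15 and Bowtie2 2.3.3.1; the sources used here do not give the build, annotation, strand or multi-mapping settings. No row lacked a gene.

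The test was edgeR (version 4.0.16, R 4.3.3). First, filterByExpr by group (minimum count 10, minimum total 15) left 13595 genes, followed by TMM scaling, glmQLFit with robust dispersions and glmQLFTest on group, with Benjamini-Hochberg adjustment at 0.05. The SE is the absolute log2 fold change over the square root of the F statistic and adds nothing to the p-value. The procedure was checked on simulated counts with the same spread for every gene and no tumour effect. That check therefore does not cover the pairing or a spread that differs by gene.

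The 2 fractions of a tumour share its number in the labels, and their deviations from the group means correlated at 0.24 to 0.499 over genes in all 5 pairs. The calls came from the fit on group alone unless the block is named. That fit left the pairing out, so that differences between tumours stayed in its error. The tumour was a block in an alternative fit. P-values measure the spread between these libraries. Libraries of a group differed beyond sampling noise (chi-square per gene of at least 7.61). TPM used exon lengths of GENCODE M21 (GRCm38), to which 46005 identifiers matched; the build of the counts was not stated, and positions only identify genes. Genes and lists were chosen with earlier results of these data known.

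Named were the 8 genes, up to 3 higher and 3 lower genes with the lowest p per related list (the nearest where none passed), the 3 nearest profiles per gene past the threshold, Pdpn and markers. Alternatives were RLE factors, library totals alone, no filter, DESeq2 1.42.0, the block, and libraries or tumours left out.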

Additional observations from a re-analysis of the deposited data

Results flagged for a closer look

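Of 52 sets of 5 libraries examined, 2 held a library that stood far from the other 4; chance alone flags about 1 set in 20. P2rx7 was at 239 CPM in the non-PoEMs of tumour 1, against 204 to 214 CPM in the other non-PoEMs libraries. Dpp4 was at 20.4 CPM in the non-PoEMs of tumour 2, against 4.61 to 8.22 CPM in the other non-PoEMs libraries.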

How the results depend on the processing

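Nt5e and Adora2a kept their direction and stayed past the threshold under all 26 alternatives, with log2 fold changes of 0.98 to 1.34 and -2.60 to -2.22. Ada kept its direction in all 26 and fell short of the threshold in 13, among them library totals alone, which left 1 of the 8 genes higher, and P2rx4 kept its direction in all 26 and fell short in 6, all with libraries left out. Entpd1 changed sign, always within its error, with library totals alone (0.0067), without PoEMs of tumour 1 (0.012), 4 (0.031) or 6 (0.0036), without non-PoEMs of tumour 1 (0.0006), 2 (0.0032) or 5 (0.043), and without tumour 1 (0.0097, or 0.011 with the replicate block) or tumour 5 (0.0094, or 0.0085 with the block). Adora2b did so without non-PoEMs of tumour 6 (0.0065). With a library left out, Entpd1 ranged from -0.0501 to 0.043 and Adora2b from -0.26 to 0.0065. With the replicate block, 1880 genes were higher and 1950 lower, in place of 929 and 920, and 5 related genes were higher and 19 lower, in place of 2 and 6; beyond these counts and the calls named above it changed no call of the 8 genes. DESeq2 with the replicate block gave 1445 genes lower, and 5 related genes higher and 15 lower. With the block and tumour 1, 2, 4, 5 or 6 left out, 1505, 1360, 1447, 1398 and 1925 genes were higher and 1692, 1380, 1677, 1564 and 2016 lower, with 5, 4, 6, 5 and 7 related genes higher and 17, 13, 14, 15 and 23 lower. Without the block, leaving out 1 library gave 617 to 1047 genes higher and 576 to 1026 lower, 0 to 3 related genes higher and 4 to 10 lower, and 1 or 2 of the 8 genes in each direction; leaving out a tumour gave 437 to 876, 482 to 885, 0 to 1, 3 to 8, 1 and 1 to 2.

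In reads without division by length, the receptor shares were 7.26% for Adora2a in PoEMs, 63.9% and 51.5% for Adora2b in PoEMs and non-PoEMs, 28.9% and 20.1% for Adora3, and 0.24% for Adora1 in non-PoEMs. With the longest transcript as length they were 69.8% for Adora2b in PoEMs, and 24.6% and 17.9% for Adora3 in PoEMs and non-PoEMs. Adora2a stayed under its non-PoEMs share in each. Among the 8 genes the lowest count was 23, for Adora2a in PoEMs of tumour 4, and Adora1, P2rx2 and P2rx3 lay below the filter.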

Other observations

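Receptor and enzyme genes of the wider family at the edge of detection were given as counts only. P2rx2 had 0 counts in all PoEMs and 9 in all non-PoEMs libraries, and P2rx3 had 7 in PoEMs and 0 in non-PoEMs. Nt5c1a, which encodes a cytosolic nucleotidase that makes adenosine, had 11 counts in PoEMs and 2 in non-PoEMs. Enpp3, a basophil-associated ectoenzyme gene, had 11 counts in PoEMs and 3 in non-PoEMs. Enpp2, which encodes autotaxin, was at 45.0 CPM in PoEMs and 17.2 CPM in non-PoEMs but did not pass the test (log2 fold change 1.38, edgeR adjusted p = 0.295). These genes were chosen after their values were seen.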
